A study of Mus musculus with 8 samples.

Results

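The 9 genes described here regulate small GTPases or bend membranes in vesicle traffic, and each had a binding peak of the transcription factor EBF1 assigned to it in mouse pro-B cells. They are Arap1, Adap1, Cyth1, Iqsec1, Dab2ip, Tbc1d16, Rhof, Pacsin1 and Sh3gl3, which are 9 of 21900 protein-coding genes of the RefSeq table and 9 of the 281 that had an EBF1 peak in DMSO-treated cells. They were chosen for their function among the genes selected on that peak, so their EBF1 values in DMSO are a description and carry no test. Each peak went to the protein-coding gene that contains its summit, and a summit between genes went to the nearest gene end within 100 kb. Chromatin immunoprecipitation with sequencing (ChIP-seq) was made in pro-B cells transformed by A-MuLV (Abelson murine leukaemia virus), in which an exogenous, modified EBF1 replaces the cells' own. The modified protein carries the dTAG, a tag that the small molecule dTAG-13 links to the ubiquitin machinery for degradation. The EBF1 antibody was used on the EBF1-dTAG_C line. Brg1, which drives nucleosome remodelling by the BAF complex, was precipitated from the EBF1-dTAG_N line. Each line was sampled after 6 h in 0.5 µM dTAG-13 and with DMSO alone, a control that the treatment labels put at 6 h and the titles at 0 h. Each group was 1 library, so no difference between dTAG-13 and DMSO has a replicate check and none was tested. EBF1 itself was not measured in the line used for Brg1.

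Small GTPases, among them the Arf, Rab and Ras families, switch between a GTP-bound active form and a GDP-bound resting form. Guanine nucleotide exchange factors (GEFs) turn them on, and GTPase-activating proteins (GAPs) turn them off by speeding hydrolysis of GTP. Arf and Rab proteins direct the budding and docking of vesicles, and Ras carries growth signals. BAR-domain proteins are curved dimers that bend membrane during endocytosis. EBF1 sets up the gene programme of early B cells, and its dimer recognises the palindrome written CCCNNGGG.

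The lists held 5 EBF1 peaks after dTAG-13 and 312 in DMSO, and 5206 Brg1 peaks after dTAG-13 and 234 in DMSO. Fragment counts under the summits were recovered from the authors' fold enrichment and p values. The lowest recovered background of a list was used as a measure of depth. For EBF1 it was 2.01 fragments per base after dTAG-13, where it comes from 1 of only 5 peaks and is an upper limit, and 2.05 in DMSO, where 63 peaks share it. The ratio of 0.981 is thus also an upper limit. For Brg1 it was 2.15 after dTAG-13, shared by 324 peaks, and 0.607 in DMSO, shared by 10, so by this measure the dTAG-13 library was 3.54 times as deep as the DMSO library. In the EBF1 DMSO list 5 of 11 pro-B genes had a peak and 0 of 22 genes of T, myeloid, erythroid or neuronal cells did. In the Brg1 lists 8 of the 11 pro-B genes had a peak after dTAG-13 and 5 in DMSO, against 3 of the 22 other genes (Cd3d, Lck and Hbb-bt) after dTAG-13 and 0 in DMSO.

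Among the 9 genes, RefSeq promoter windows (GRCm38.p6, the build of the lists, 250 bases before to 50 after a start site) met a peak at Rhof and at Cyth1. Both windows are shown because they are the stretches of bound member promoter that can be read directly. The Rhof window lies at chr5:123132580-123132879 on the minus strand, and capitals mark the 91 bases that the EBF1 DMSO peak covers. The Cyth1 window lies at chr11:118212682-118212981 on the minus strand, and capitals mark the 84 bases under a Brg1 peak of the dTAG-13 library. The third window, of the ubiquitin ligase gene Trim25, lies at chr11:88999153-88999452 on the plus strand and is given for contrast. Its capitals mark CCCNNGGG, and it had an EBF1 peak in DMSO of rank 57 and fold enrichment 8.01 that was absent after dTAG-13. All are written 5′ to 3′.
Rhof: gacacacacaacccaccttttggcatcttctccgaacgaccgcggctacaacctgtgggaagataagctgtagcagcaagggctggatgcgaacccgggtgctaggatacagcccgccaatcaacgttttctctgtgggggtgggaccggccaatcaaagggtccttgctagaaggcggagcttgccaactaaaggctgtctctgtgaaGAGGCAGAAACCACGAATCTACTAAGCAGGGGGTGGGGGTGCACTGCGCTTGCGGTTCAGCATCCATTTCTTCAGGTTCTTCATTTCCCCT
Cyth1: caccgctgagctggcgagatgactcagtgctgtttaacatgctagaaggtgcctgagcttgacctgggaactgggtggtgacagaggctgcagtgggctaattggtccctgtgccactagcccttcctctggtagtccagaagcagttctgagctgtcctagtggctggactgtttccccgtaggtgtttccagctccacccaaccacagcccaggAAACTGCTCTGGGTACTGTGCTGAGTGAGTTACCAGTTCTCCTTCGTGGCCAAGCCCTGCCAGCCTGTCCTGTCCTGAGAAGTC
Trim25: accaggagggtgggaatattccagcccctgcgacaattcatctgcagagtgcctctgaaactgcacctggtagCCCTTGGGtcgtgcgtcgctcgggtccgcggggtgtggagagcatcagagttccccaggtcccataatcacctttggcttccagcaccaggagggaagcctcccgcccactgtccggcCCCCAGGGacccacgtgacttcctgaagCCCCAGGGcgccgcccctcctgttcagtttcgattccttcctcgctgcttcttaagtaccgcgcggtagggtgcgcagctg

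The palindrome CCCNNGGG reads the same on both strands. It had 0 matches in the Rhof and Cyth1 windows and 3 in the Trim25 window, at bases 74-81, 192-199 and 220-227, with the EBF1 summit at base 182. Of the 13 windows that held an EBF1 DMSO summit, 10 (76.9%) had a match, and Rhof was 1 of the 3 without. Among all 32851 RefSeq windows 4491 (13.7%) had a match, and among the 16 windows of the 9 genes 2 (12.5%) did, 1 each of Adap1 and Dab2ip, neither of which a peak covers. Tbc1d16 has no RefSeq window, so its promoter was neither searched for the palindrome nor checked for a peak. The Rhof peak reaches past the window, and those bases were not searched. A match of these letters is a description, and its absence says only that they are not in the window.

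EBF1 binding in DMSO is described by role, with the authors' fold enrichment of the summit over its local background, the rank among 312 peaks by p, and the fragments at the summit with their exact Poisson 95% interval, which covers counting error only. Among the Arf GAPs, which switch Arf proteins off, Arap1 (chr7:101347921-101412586) had 1 peak at chr7:101377913-101378203. Its fold enrichment was 12.4, its rank 13 and its fragments 49 (36.3 to 64.8). The summit lies inside the gene, 7.48 kb upstream of the nearest of its 3 RefSeq start sites. Arap1 joins its Arf GAP domain with ankyrin repeats and PH domains. Adap1 (chr5:139271876-139325763), an Arf GAP that binds phosphoinositides through its PH domains, had 1 peak at chr5:139306230-139306807, inside the gene and 19.0 kb downstream of its start. Its fold enrichment was 14.1, its rank 12 and its fragments 48 (35.4 to 63.6). The 2 Arf GAP peaks were thus of like height and both among the 15 highest of the list.

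The Arf GEFs had 2 peaks each. Cyth1 (chr11:118164170-118248616) encodes cytohesin-1, a Sec7-domain exchange factor that binds β2 integrin tails in leukocytes. One Cyth1 peak, at chr11:118156475-118156704, lies 7.51 kb past the 3′ end of the gene, with a fold enrichment of 6.07, rank 114 and 34 fragments (23.5 to 47.5). The other, at chr11:118193120-118193309, lies inside the gene 9.54 kb downstream of a start site, with a fold enrichment of 4.78, rank 267 and 21 fragments (13 to 32.1). Their summits are 36.5 kb apart. Iqsec1 (chr6:90659596-90988480, also called BRAG2) encodes an exchange factor for Arf6, which works at the plasma membrane and on endosomes. Its peaks at chr6:90764838-90765045 and chr6:90764293-90764460 lie inside the gene with summits only 588 bp apart, so they may share fragments and are not independent. The higher had a fold enrichment of 10.6, rank 46 and 34 fragments (23.5 to 47.5). The lower had a fold enrichment of 5.03, rank 203 and 28 fragments (18.6 to 40.5). The higher summit is 45.1 kb downstream of the nearer start site.

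Dab2ip (chr2:35558446-35730994), a Ras GAP that dampens Ras and survival signalling, had 1 peak at chr2:35737730-35737964, 6.82 kb past its 3′ end. The gene Ttll11 lies 13.4 kb away on the other side. Its fold enrichment of 10.6, rank 46 and 34 fragments (23.5 to 47.5) were those of the higher Iqsec1 peak, with which it tied. Tbc1d16 (chr11:119143043-119228503) belongs to the TBC-domain GAPs, which switch Rab proteins off. It had the highest and nearly the lowest of the 12 peaks by p. The peak at chr11:119133710-119134143 had a fold enrichment of 17.9, rank 3 and 82 fragments (65.2 to 102) and lies 9.15 kb outside the gene, with the long noncoding RNA gene Gm11755 nearer at 6.98 kb. The peak at chr11:119163010-119163236, inside the gene, had a fold enrichment of 3.35, rank 305 and 26 fragments (17 to 38.1). The intervals of the pair do not overlap.

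Rhof (chr5:123118180-123141808), also called Rif, is a small GTPase that induces filopodia and is the only GTPase among the 9. Its EBF1 peak at chr5:123132480-123132670 had a fold enrichment of 5.21, rank 249 and 23 fragments (14.6 to 34.5). The summit lies 8 bp downstream of the start site of the window printed above, and it was the only 1 of the 12 summits within 1 kb of a RefSeq start. Among the other 300 EBF1 summits 41 (13.7%) lay that close. Tbc1d16 has no RefSeq window, so its 2 summits were not placed against its own start. They lie 9.15 and 20.1 kb from the nearest end of the gene.

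The BAR-domain proteins differed widely in peak height. Pacsin1 (chr17:27655591-27711118), or syndapin-1, is an F-BAR protein known mainly from neurons, where it acts in synaptic endocytosis. Its peak at chr17:27699562-27699946, inside the gene 14.5 kb downstream of the start, had a fold enrichment of 3.47, rank 311 and 23 fragments (14.6 to 34.5). Sh3gl3 (chr7:82173808-82307420) encodes endophilin-A3, an N-BAR protein of endocytosis. Its peak at chr7:82109151-82109667 had the highest fold enrichment of the 12, 18.7, with rank 6 and 64 fragments (49.3 to 81.7). It is also the farthest from its gene, 64.4 kb outside the body and 65.4 kb upstream of the start, with the long noncoding RNA genes Gm32850 at 10.6 kb and Gm20744 at 27.6 kb nearer.

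**Figure D1:**
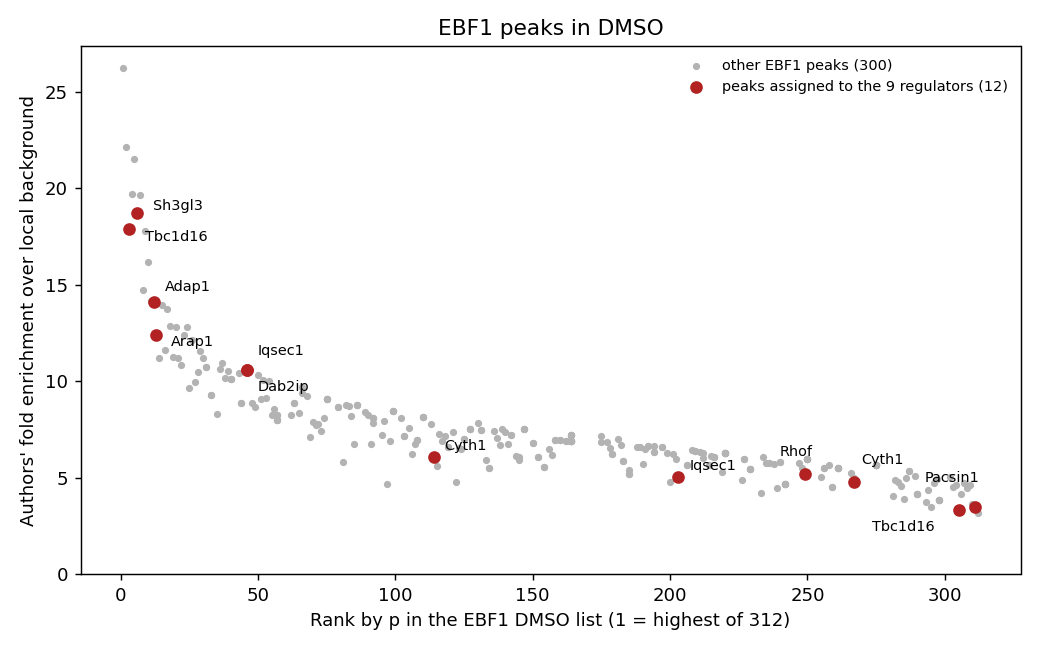
Authors' fold enrichment (vertical axis) of each EBF1 peak in DMSO against its rank by p (horizontal axis, 1 is the highest of 312), with the 12 peaks assigned to the 9 genes in red and named, and the other 300 in grey. Tbc1d16, Sh3gl3, Adap1 and Arap1 lie among the 15 highest, while Pacsin1 and the second Tbc1d16 peak lie at ranks 311 and 305.

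Pacsin1 and Sh3gl3 are also the members nearest to the limits of the choice, Pacsin1 with a −log10 q of 1.98 where the lowest of the list was 1.46, and Sh3gl3 by its 64.4 kb. Just outside stand genes of the same families whose nearest EBF1 summit was assigned to another gene. They are Rac2 at 32.9 kb from a summit inside Cyth4, Bin3 at 33.9 kb from a summit assigned to Pebp4, Tbc1d10c at 40.5 kb from one of Pold4, Rac1 at 76.1 kb from one of Cyth3, Asap3 at 78.4 kb from one of Id3 and Sh3glb2 at 82.6 kb from one of Ptpa. Fchsd2 stands 93.6 kb from the summit inside Arap1.

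The 12 peaks had a median fold enrichment of 8.34 and 34 fragments at the summit, against 6.68 and 25.5 for the other 300. Of the 12 peaks 6 (50%) ranked among the 50 highest and 4 (33.3%) among the 15 highest. Of the other 300 peaks 44 (14.7%) and 11 (3.67%) did. Among the further genes of like function named below, the highest ranks were 22 at Fgd2, 31 at Snx5 and 50 at Rasa4. High rank is thus described for the chosen genes and not shown for such regulators in general. Of the 12 summits 8 (66.7%, exact Clopper-Pearson 95% interval 34.9 to 90.1%) lay inside a protein-coding gene, against 142 of 300 others (47.3%, 41.6 to 53.2%). The 8 inside had a median rank of 226 and the 4 outside a median rank of 26, and the assignment of the 4 outside, the Tbc1d16 and Sh3gl3 peaks of ranks 3 and 6 among them, rests on distance alone. The genes are long, with a median of 84.4 kb against 17.1 kb for all protein-coding genes, and lie on 6 chromosomes. Of the 9 genes 3 (Cyth1, Iqsec1 and Tbc1d16) had 2 EBF1 peaks, where 0.0959% of all protein-coding genes had at least 2 and 1.28% had at least 1. Each of the 9 had at least 1 by choice, so the like comparison is with the 281 genes with a peak, of which 21 had at least 2. These shares are tied to the choice of genes.

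After dTAG-13 none of the 9 genes had an EBF1 peak, and no EBF1 peak of that list lay on any of their chromosomes. In DMSO the 9 had 12. Of the 12 DMSO sites 0 overlapped a dTAG-13 peak (0 to 26.5%), against 5 of 312 (1.60%) over the whole list, so the share in the set is near that of all sites. Genes with a peak made up 0.0228% of protein-coding genes after dTAG-13. How far the EBF1 libraries differed in depth is not settled by the 5 peaks left after dTAG-13. The lowest −log10 p of the dTAG-13 list was 14.2, higher than the 5.85 of the DMSO list. Of the 12 DMSO peaks 7 reached 14.2 (58.3%, 27.7 to 84.8%), as did 143 of all 312 (45.8%). The 7 were 1 each of Tbc1d16, Sh3gl3, Adap1, Arap1, Dab2ip, Iqsec1 and Cyth1. The other 5, at Rhof and Pacsin1 and the lower peaks of Tbc1d16, Cyth1 and Iqsec1, stood below every peak listed after dTAG-13 by p. The 14.2 belongs to the weakest of 5 peaks and need not be the limit of calling. Its −log10 q was 7.57, where the DMSO list went down to 1.46.

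**Figure D2:**
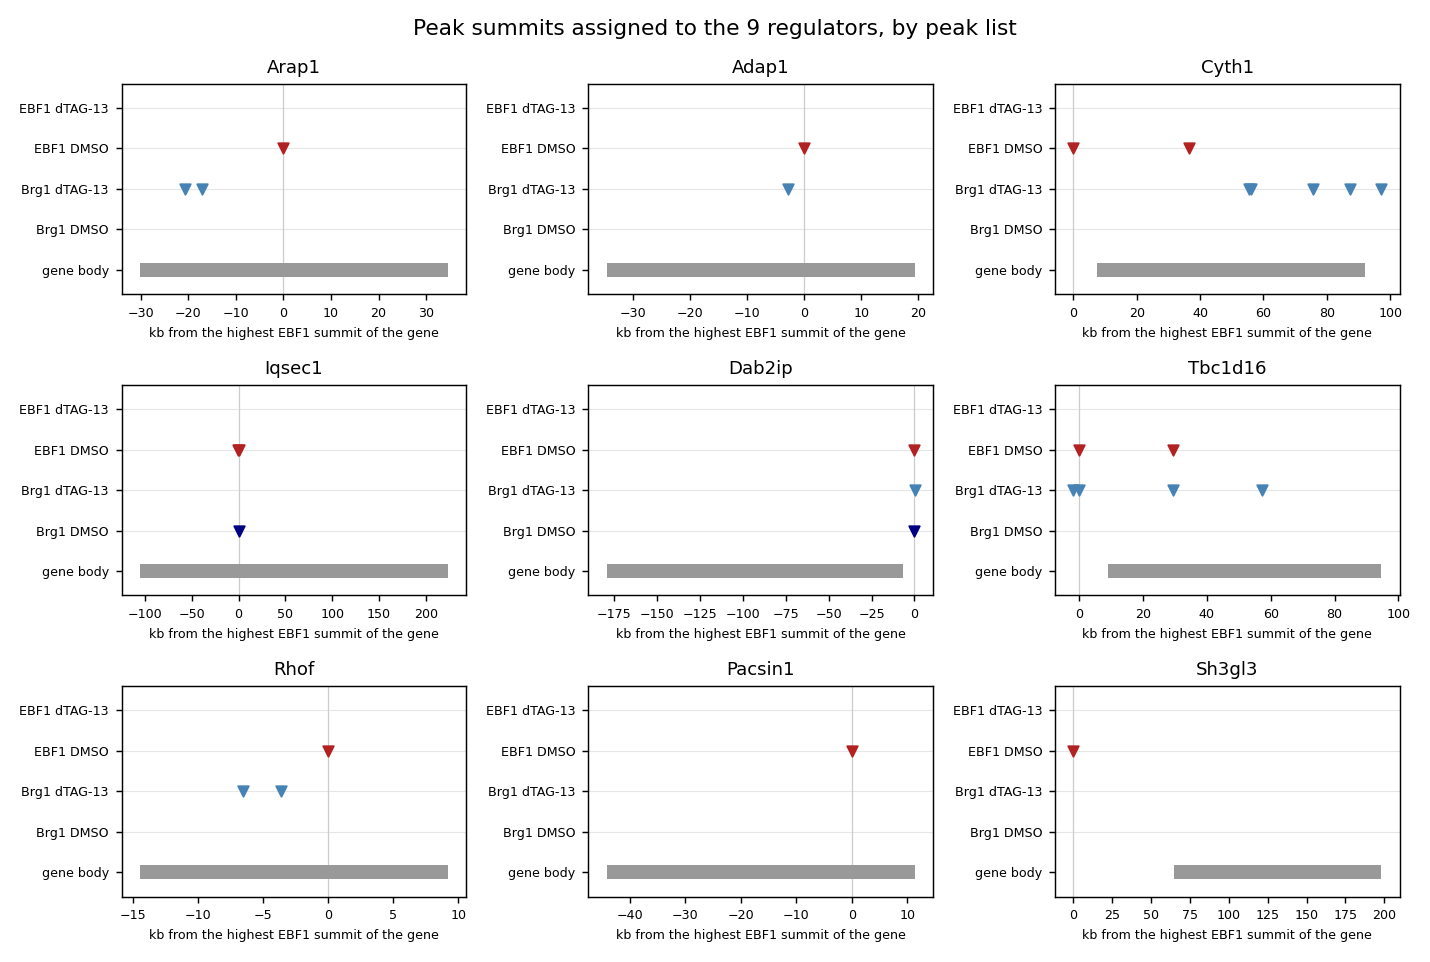
Position of each peak summit (triangles, 1 line per peak list) relative to the highest EBF1 summit of the gene, in kb along the chromosome, with the gene body as a grey bar and 1 panel per gene. The EBF1 dTAG-13 line is empty in all 9 panels, and Brg1 triangles stand directly below EBF1 triangles at Dab2ip, Iqsec1 and Tbc1d16.

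Brg1 was assigned to 6 of the 9 genes after dTAG-13 (66.7%, 29.9 to 92.5%) and to 2 in DMSO (22.2%, 2.81 to 60.0%). The peaks numbered 15 after dTAG-13 and 2 in DMSO. Of all protein-coding genes 12.2% had a Brg1 peak after dTAG-13 and 0.817% in DMSO. The other 272 genes with an EBF1 peak had one in 151 cases (55.5%) after dTAG-13 and in 46 (16.9%) in DMSO, so the 9 genes stood near the remaining EBF1-bound genes on this measure. Among the 2959 protein-coding genes of 84.4 kb or longer, 665 (22.5%) had a Brg1 peak after dTAG-13 and 59 (1.99%) in DMSO.

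The Arf GAPs had Brg1 peaks after dTAG-13 and none in DMSO. Arap1 had 2, of fold enrichment 4.20 with 13 fragments (6.92 to 22.2) and 3.91 with 16 fragments (9.15 to 26), the nearer 17.1 kb from its EBF1 site. Adap1 had 1, of fold enrichment 4.13 with 18 fragments (10.7 to 28.4), 2.88 kb from its EBF1 site.

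Cyth1 had the most of the 9 genes, with 5 Brg1 peaks after dTAG-13 and 0 in DMSO, and 0.708% of all protein-coding genes had at least 5 after dTAG-13. Its highest by p, rank 866 of 5206, had a fold enrichment of 4.65 and 27 fragments (17.8 to 39.3) at 794 bp downstream of a start site. The peak whose bases are capitals in the printed window lay next to it, with its summit 134 bp downstream of that start, a fold enrichment of 4.73 and 16 fragments (9.15 to 26). A further peak stood 5.31 kb upstream of the outermost start. None was nearer than 18.8 kb to a Cyth1 EBF1 site. Iqsec1 had the opposite order, 0 Brg1 peaks after dTAG-13 and 1 in DMSO, at chr6:90764879-90765106, with a fold enrichment of 7.84 and 13 fragments (6.92 to 22.2).

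Dab2ip had 1 Brg1 peak in each condition at the same place. After dTAG-13 its fold enrichment was 3.75 with 12 fragments (6.20 to 21.0) and rank 4760 of 5206. In DMSO it was 6.98 with 11 fragments (5.49 to 19.7) and rank 131 of 234. Tbc1d16 had 4 Brg1 peaks after dTAG-13 and 0 in DMSO, and at least 4 were found at 1.26% of all protein-coding genes after dTAG-13. Their fold enrichments ran from 3.67 to 4.89 and their fragments from 14 to 19. Rhof had 2 after dTAG-13 and 0 in DMSO. The Rhof peak at chr5:123125989-123126196 was the highest of the 15 by p, with rank 556, a fold enrichment of 5.75 and 24 fragments (15.4 to 35.7). Its summit lay 6.56 kb downstream of the start. Pacsin1 and Sh3gl3 had no Brg1 peak after dTAG-13 and none in DMSO. Arap1, Cyth1, Tbc1d16 and Rhof each had at least 2 after dTAG-13, which 4.53% of all protein-coding genes had.

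The 15 Brg1 peaks after dTAG-13 were of ordinary height for their list, with a median fold enrichment of 4.20 and 18 fragments, against 4.45 and 18 over all 5206. Depth moved with the difference between conditions. Scaled down by the 3.54-fold gap in background, 0 of the 15 would hold the 8 fragments of the lowest summit in the DMSO list, and 271 of all 5206 (5.21%) would. The highest in fragments, at Cyth1, would hold 7.63 (5.03 to 11.1), and the Rhof peak of rank 556 would hold 6.79 (4.35 to 10.1). The intervals of 9 of the 15 reach 8. The larger number of Brg1 peaks after dTAG-13 therefore cannot be told apart from the depth of that library. The 2 DMSO peaks are scaled up by the same 3.54. They are known only because they were called in the shallower library, so their scaled counts may run high. Scaled up, the 13 fragments of Iqsec1 correspond to 46.0 (24.5 to 78.6) at dTAG-13 depth, where no peak was listed nearer than 336 kb. The 11 fragments of Dab2ip correspond to 38.9 (19.4 to 69.6), against the 12 fragments (6.20 to 21.0) seen after dTAG-13. These 2 intervals overlap from 19.4 to 21.0. That overlap shows the counts neither alike nor different, and their difference was not tested. The intervals cover counting error only. They leave out the error of the 3.54, whose DMSO background is shared by 10 peaks. With 1 library per group the share of antibody-specific fragments in each Brg1 library was not tested.

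At the EBF1 sites themselves, 3 of 12 overlapped a Brg1 peak after dTAG-13 (25.0%, 5.49 to 57.2%) and 2 of 12 in DMSO (16.7%, 2.09 to 48.4%). Over the whole list the shares were 17.9% after dTAG-13 and 14.1% in DMSO. Among the other 300 sites they were 53 (17.7%) after dTAG-13 and 42 (14%) in DMSO. The intervals of the set are wide and treat its sites as independent, which the 2 Iqsec1 sites are not. They do not serve as a test. The Dab2ip site overlapped Brg1 in both conditions, with the summits 32 bp apart after dTAG-13 and 1 bp apart in DMSO. Both Tbc1d16 sites overlapped Brg1 after dTAG-13 only, at 92 bp for the site of rank 3 and 198 bp for the site of rank 305. In DMSO the nearest Brg1 summits to them were 44.6 and 73.9 kb away. The Tbc1d16 Brg1 peaks had 19 and 18 fragments, or 5.37 and 5.09 at DMSO depth, under the 8 of the lowest DMSO summit. The higher Iqsec1 site overlapped Brg1 in DMSO only, with the summits 49 bp apart, and the lower Iqsec1 site lay 0.637 kb from the same Brg1 summit. The other 8 sites overlapped none in either condition. Over all 312 sites 5.45% overlapped Brg1 in both conditions, 12.5% after dTAG-13 only, 8.65% in DMSO only and 73.4% in neither, close to the members' shares of 8.33%, 16.7%, 8.33% and 66.7%.

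**Figure D3:**
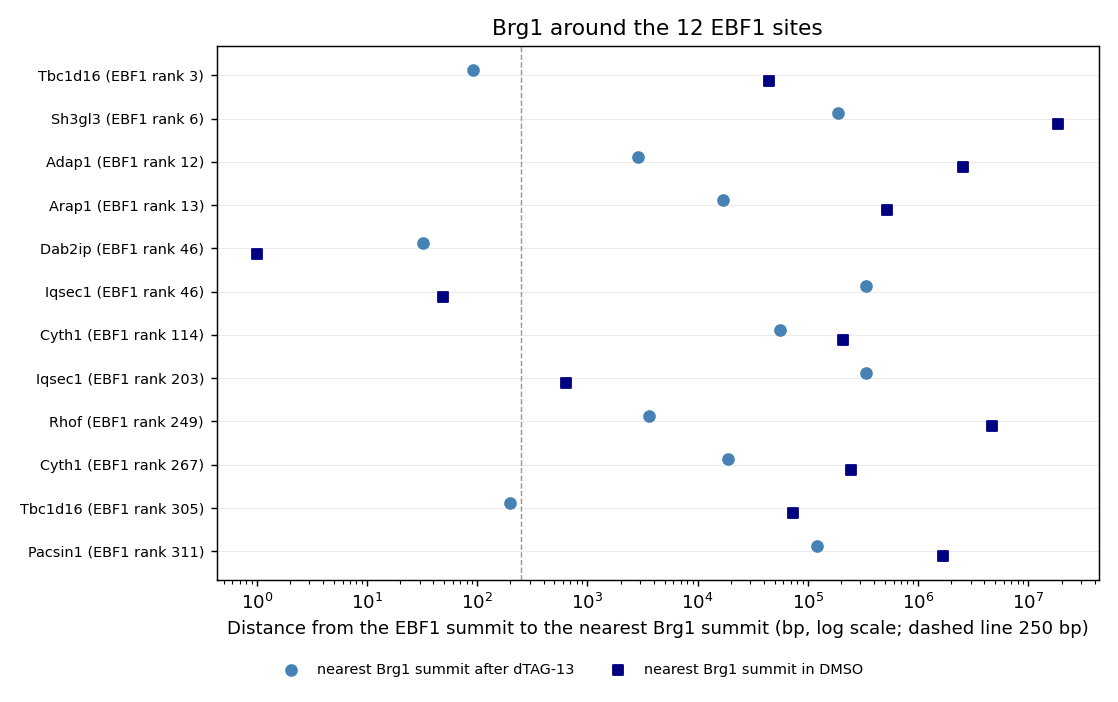
Distance in bp (log scale) from each of the 12 EBF1 DMSO summits, top to bottom by rank, to the nearest Brg1 summit after dTAG-13 (circles) and in DMSO (squares), with a dashed line at 250 bp. Circles lie left of the line at Dab2ip and both Tbc1d16 sites, squares at Dab2ip and the higher Iqsec1 site.

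Brg1 lay at widely different distances from the EBF1 sites, among high and low EBF1 peaks alike. Sh3gl3, the EBF1 peak of rank 6, had its nearest Brg1 summit 188 kb away after dTAG-13 and 18747 kb away in DMSO. Adap1 and Arap1, at ranks 12 and 13, overlapped none, while the Tbc1d16 peak of rank 305 overlapped one. Rhof, at its start site, had Brg1 3.61 kb away after dTAG-13 and 4637 kb away in DMSO. Pacsin1 had it 121 kb away after dTAG-13 and 1696 kb away in DMSO. Brg1 summits after dTAG-13 lay within 5 kb of 5 of the 12 sites (41.7%), against 98 of the other 300 (32.7%). Read from the Brg1 side, 3 of the 15 Brg1 peaks of these genes after dTAG-13 overlapped an EBF1 DMSO site (20.0%, 4.33 to 48.1%), against 57 of all 5206 (1.09%). The genes had been selected on having such a site.

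The 9 genes were set among 143 genes of 8 families of the same roles. EBF1 peaks were assigned to 0 of the 143 after dTAG-13 and to 14 (9.79%) in DMSO, of which 9 are the members. Without them 5 of 134 (3.73%) had an EBF1 peak in DMSO, against 1.28% of all protein-coding genes. Those were Rasa4, a Ras GAP, with rank 50 and fold enrichment 10.3, Agfg2, related to the Arf GAPs, with rank 121 and 7.39, the cytohesins Cyth3 and Cyth4, tied at rank 250 with 5.96 each, and the endocytic scaffold Itsn1 with rank 298 and 3.82. With Cyth1, 3 of the 4 cytohesins thus had an EBF1 peak in DMSO, Cyth4 inside the gene, Cyth3 at 18.4 kb and Cyth1 both inside and at 7.51 kb. None of these 5 further sites overlapped Brg1 after dTAG-13 or in DMSO. In 7 of the 8 families, EBF1 in DMSO was at 3 of 23 Arf GAPs, 4 of 15 Arf GEFs, 0 of 6 Arf GTPases, 1 of 36 TBC-domain Rab GAPs, 2 of 10 Ras GAPs, 2 of 26 listed BAR-domain proteins and 1 of 7 endocytic partners. The family lists are not exhaustive and were drawn up with earlier results of these data known. The sorting nexins Snx5 and Snx8, described below with an EBF1 peak each, are not among the 26 listed BAR-domain proteins.

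Brg1 peaks were assigned to 44 of the 143 family genes (30.8%) after dTAG-13 and to 5 (3.50%) in DMSO. Without the members these were 38 of 134 (28.4%) after dTAG-13 and 3 (2.24%) in DMSO. Of all protein-coding genes 12.2% had one after dTAG-13 and 0.817% in DMSO, and of those of 84.4 kb or longer 22.5% and 1.99% did. The lengths of the family genes were not compared. Over the same 7 families the share after dTAG-13 ran from 1 of 7 endocytic partners to 4 of 10 Ras GAPs. The highest Brg1 peak of any family gene after dTAG-13 was at Fnbp1, an F-BAR protein, with rank 34, a fold enrichment of 8.59 and 40 fragments, above every Brg1 peak of the 9 genes. Among Arf GEFs Cyth1 at rank 866 came after Cyth4 at rank 447. In DMSO the Brg1 genes outside the set were the Rab GAPs Tbc1d5, Tbc1d10a and Rabgap1l, each of whose DMSO peaks overlapped a dTAG-13 Brg1 peak. The Iqsec1 peak did not, as was so for 107 of all 234 Brg1 DMSO peaks (45.7%) and for 27 of the 44 EBF1 sites with Brg1 in DMSO (61.4%).

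**Figure D4:**
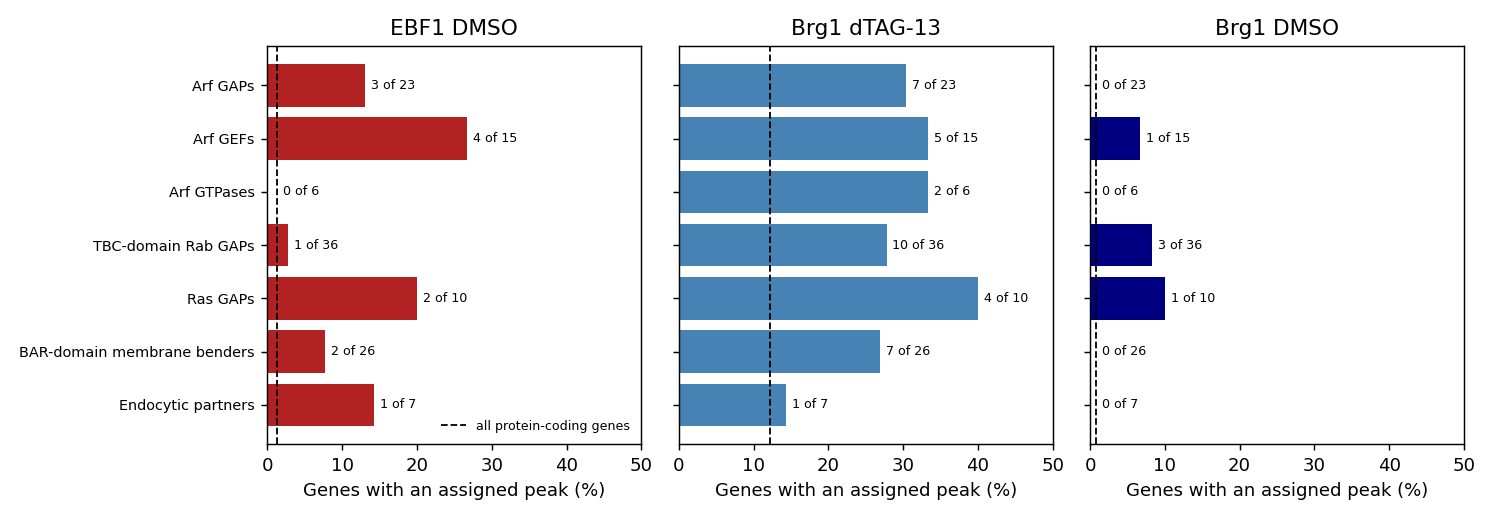
Percent of the genes of each of 7 regulator families (rows) with an assigned EBF1 peak in DMSO, Brg1 peak after dTAG-13 and Brg1 peak in DMSO (panels, 1 library each), with counts beside the bars and a dashed line at the share of all protein-coding genes; EBF1 after dTAG-13 was 0 in each of them. Of the 9 members 8 are included, and their EBF1 peaks in DMSO were part of how they were chosen.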

How the data were processed

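EBF1 and Brg1 ChIP-seq peaks of 4 libraries, 1 per group, were analysed, and the 4 inputs were not analysed here. The submitters' processing notes name MACS2 2.2.7.1, Bowtie2 2.3.5.1, deepTools 3.3.2 and SAMtools 1.10, and the builds mm10 and GRCm38. How reads were filtered, and the settings and control of peak calling, are not given in the sources used. Each deposited list names 1 library, so peaks were called per library. The authors' fold enrichment is a linear ratio, summit pileup plus 1 over local background plus 1. Both p and q stand in the deposited lists as −log10. The deposited score is derived from the −log10 q. The remaining deposited value places the summit within the peak. These were used within each list only, with 2 exceptions. One is the fragments and backgrounds recovered from them, and the other is the p and q thresholds set across lists.

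Solving the fold enrichment and the Poisson p together gave whole fragments at the summit, within 0.02, for 100% of peaks in every list, with a scaling of 0.818 (EBF1 dTAG-13), 0.863 (EBF1 DMSO) and 1 (Brg1). The lowest local background, with the scaling undone, stood for the depth of a library (an upper limit where few peaks share it), since read totals were not at hand. The solving was tested on simulated data. Python 3.11.15, numpy 2.4.6, pandas 2.3.3, scipy 1.17.1 and matplotlib 3.10.9 were used.

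Genes and promoter windows are RefSeq's for GRCm38.p6. Strand and start sites came from the windows, which give no exons. Tbc1d16 has no window and is given without a strand or start site. Overlap means at least 1 bp, and ranks are by p. Every member is named, as are the other genes of the 8 families with an EBF1 peak or a Brg1 DMSO peak, and a few of their highest Brg1 peaks. The members, family lists and markers were chosen with earlier results of these data known. The values of 1 of the 8 families are not reported here. No p-value was computed between conditions. Alternatives changed the q threshold, the distance limit, the assignment, the overlap and the length of the Brg1 list.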

Additional observations from a re-analysis of the deposited data

Results flagged for a closer look

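Both differences between conditions rest on 1 library per group and were not tested. EBF1 peaks assigned to the 9 genes numbered 0 after dTAG-13 and 12 in DMSO, a difference of -12, while Brg1 peaks numbered 15 after dTAG-13 and 2 in DMSO, a difference of 13. They are listed because they run in opposite directions at the same genes. The genes were chosen for an EBF1 peak in DMSO, so the choice itself favoured a negative EBF1 difference. The whole lists run the same ways, with 5 EBF1 peaks after dTAG-13 and 312 in DMSO, and 5206 Brg1 peaks after dTAG-13 and 234 in DMSO. The EBF1 libraries came from the EBF1-dTAG_C line and had a background ratio of at most 0.981 (dTAG-13 over DMSO). The Brg1 libraries came from the EBF1-dTAG_N line, with another antibody and a background ratio of 3.54. Line, antibody and depth cannot be told apart here. Iqsec1 and Dab2ip do not follow the Brg1 direction of the total, Iqsec1 with 0 peaks after dTAG-13 and 1 in DMSO and Dab2ip with 1 in each.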

How the results depend on the processing

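Of 42 alternatives 33 kept the result within 1.5 times its value and 9 moved it. The 33 include the EBF1 counts of 0 after dTAG-13, which these alternatives could not have moved. That list holds 5 peaks, none on a chromosome of the 9 genes, and for the family genes the alternatives only removed peaks. The 12 EBF1 DMSO peaks of the 9 genes became 7 at −log10 q ≥ 10, and members with an EBF1 peak after dTAG-13 stayed at 0 under every alternative run. The 15 Brg1 dTAG-13 peaks became 5 at −log10 q ≥ 5 and 0 at 10, and the 2 Brg1 DMSO peaks became 0 at 10 and 1 when every summit went to the nearest gene end. Shortened to the 234 highest peaks, the length of the DMSO list, the Brg1 dTAG-13 list held 0 peaks of the 9 genes, against 2 in DMSO, so the order of the conditions turned. EBF1 sites with Brg1 after dTAG-13 became 1 of the 9 sites left with both lists at −log10 q ≥ 5, and 0 of 12 with the shortened list, against 2 in DMSO in either case. They were 2 after dTAG-13 and 2 in DMSO at a reciprocal overlap of 50%, and 3 in each for summits within 1 kb. Family genes with Brg1 after dTAG-13 became 25 of 143 at −log10 q ≥ 5. Holding both Brg1 lists to the weakest p found in DMSO, an alternative chosen after seeing the data, left 14 peaks after dTAG-13 and 2 in DMSO, and 2 sites in each. A stricter threshold or a shorter list holds fewer peaks by construction. No paired analysis was possible because each group has 1 library and no test was made. The lowest Brg1 summit rested on 10 fragments after dTAG-13 and 8 in DMSO, and what depth added to or kept from either list was not tested.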

Other observations

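Another 10 genes of GTPase signalling and vesicle traffic had 1 EBF1 peak each in DMSO. They were picked by function after the list had been seen, so they are a description and not a survey. Rab5a, the GTPase of early endosomes, had its EBF1 summit 263 bp upstream of its start site, with rank 203 and fold enrichment 5.03. Rinl, an exchange factor of the Rab5 subfamily, had its summit 43 bp downstream of its start, with rank 75 and fold enrichment 9.08. Both sites overlapped a Brg1 peak after dTAG-13 and none in DMSO. Hip1r, which links clathrin coats to actin, had its summit 211 bp upstream of its start, with rank 133 and fold enrichment 5.89, and no Brg1 peak in either condition. Fgd2, an exchange factor for Cdc42, had a peak of rank 22 and fold enrichment 10.8 at 18.7 kb.

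The sorting nexins Snx5, Snx8 and Snx20 had EBF1 peaks of rank 31, 250 and 192, with fold enrichments of 10.7, 5.96 and 6.66. The Snx20 site overlapped Brg1 after dTAG-13 only. The Snx5 site overlapped Brg1 in DMSO only, like the Iqsec1 site, although Snx5 had 9 Brg1 peaks after dTAG-13. The nearest of those summits lay 1.92 kb from the EBF1 summit. The SNARE gene Vti1a (rank 308, fold enrichment 4.45) likewise overlapped Brg1 in DMSO only. The SNARE gene Stx1a (rank 147, fold enrichment 7.52) overlapped none, and the kinase gene Lrrk2 (rank 84, fold enrichment 8.21, 38.4 kb outside the gene) overlapped Brg1 after dTAG-13 only. Of the 10 sites 4 overlapped Brg1 after dTAG-13 and 2 in DMSO, where 17.9% and 14.1% of all 312 EBF1 sites did. None of these differences was tested.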
